A study of Mus musculus with 2 samples.

Results

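ATP-binding cassette (ABC) transporters are membrane proteins that use ATP to carry lipids, bile components, peptides, drugs and metabolites across membranes. The 50 genes described here are the protein-coding genes whose GENCODE M21 symbol begins with Abc, a subfamily letter of a to g and a number. They were found by symbol among 22028 protein-coding genes and 55536 genes with Ensembl identifiers, and all 50 were measured in both libraries. The study sequenced polyadenylated RNA from livers of healthy, mixed-sex B6NCrl mouse embryos at 12.5 days of development. There was 1 group of 2 biological replicates, each 1 pool of livers, taken from 120 embryos for replicate 1 and 88 embryos for replicate 2. Because each library is a pool of many embryos, the spread between them is not that of single animals. The labels give both pools the same donor entry, and whether it stands for the strain or for a shared source is not stated. The input was 10 ng of RNA for each, with spike-in transcripts added, and no genotype, treatment or other stage was part of the comparison.

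The liver at this stage is the main site of red cell formation as well as the developing bile-forming organ. Erythroblasts build haem and iron-sulphur clusters in their mitochondria, where half-transporters such as Abcb6, Abcb8 and Abcb10 reside. In the mature liver, hepatocytes secrete bile through the canalicular membrane with other ABC proteins, which carry bile salts (Abcb11), phospholipid (Abcb4), conjugated organic anions (Abcc2), sterols (Abcg5 with Abcg8) and hydrophobic drugs (Abcb1a and Abcb1b). Abcg2 belongs to both settings, since it exports porphyrins and urate, sits on red cells and lies in the canalicular membrane. The lists of roles used below follow this general knowledge.

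The libraries held 38293265 expected counts in replicate 1 and 35399872 in replicate 2, of which the 50 genes took 95862 and 89332. Levels are given in TPM as deposited, a relative unit that allows for both depth and transcript length. Summed over the 50 genes they came to 936 TPM in replicate 1 and 940.2 in replicate 2. Markers of erythroid cells (5 of 5 genes, summed level 61093 and 62983 TPM, mostly the globin Hbb-bs) and of hepatoblasts (5 of 5, 11221 and 10853 TPM) were at 1 TPM or more in both libraries. So were all 5 markers each of macrophages (175 and 177 TPM), endothelium (159.9 and 143 TPM), megakaryocytes (1018 and 897 TPM), stem and progenitor cells (71.7 and 72.0 TPM) and mesenchyme (330.5 and 342 TPM). None of 5 markers of gut, lung and pancreas reached 1 TPM (1.16 and 1.54 TPM in sum), and Ptf1a and Sftpc had no counts. The part of each cell type in the levels below was not tested, and in whole tissue fewer cells of a type and less RNA per cell cannot be told apart.

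Of the 50 genes, 34 (68%) reached 1 TPM in both libraries, against 53.5% of all protein-coding genes. At 10 TPM the count was 14 of 50 (28%), against 31.5% of all protein-coding genes, so the share at the higher level was close to that of genes in general. The median gene stood at 3.065 TPM in replicate 1 and 3.245 in replicate 2, while the median protein-coding gene stood at 1.80 and 1.825 TPM. The remaining 16 genes were under 1 TPM in both libraries, and Abca12, Abca15 and Abca16 had no counts at all. A count of 0 allows up to 3 counts, or 0.0783 CPM in replicate 1 and 0.0847 CPM in replicate 2, which covers counting error only. The family's RNA was concentrated in a few genes, since Abcg2, Abcb10 and Abce1 together made up 46.6% ± 0.163 (SD, n = 2) of the summed TPM.

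**Figure D1:**
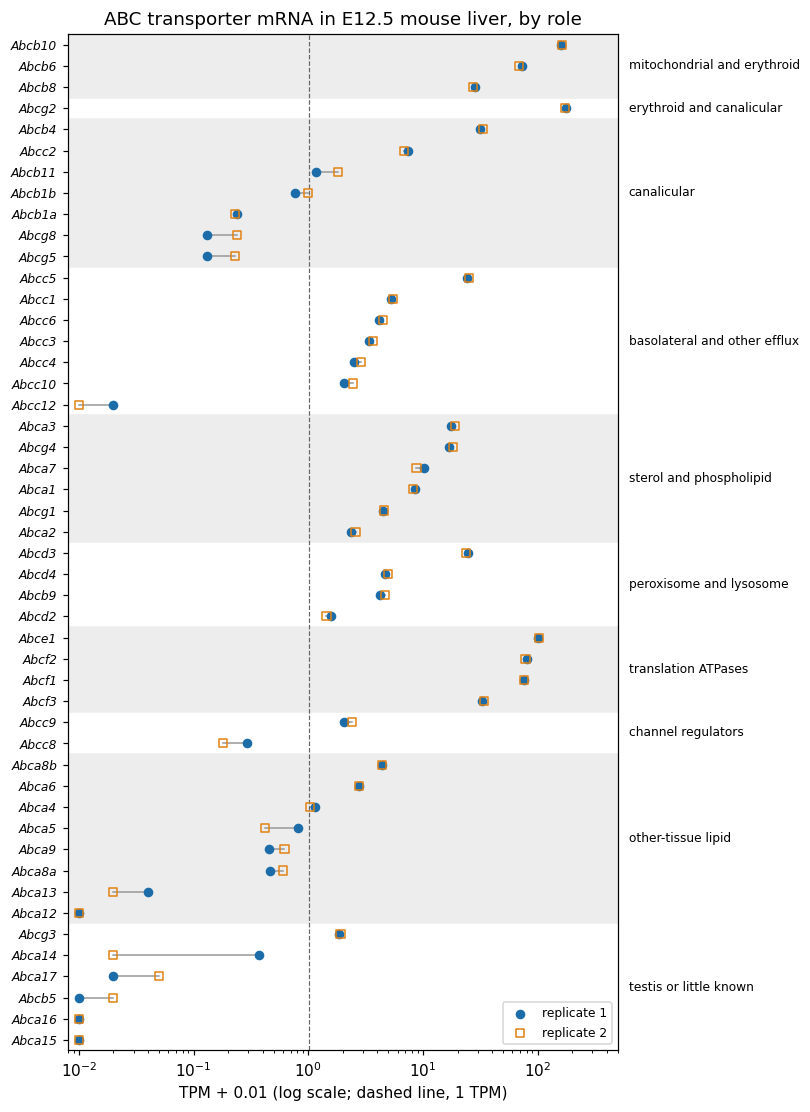
Level of 48 of the 50 ABC genes in TPM with 0.01 added (log scale), grouped by role, with filled circles for replicate 1 and open squares for replicate 2; the dashed line marks 1 TPM. The 3 mitochondrial and erythroid genes shown lie at 10 TPM or more, whereas 4 of the 7 canalicular genes lie under 1 TPM. The 2 libraries separate most widely among genes under 1 TPM, mostly on few counts but also in Abca5, on 111 and 89 counts.

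Abcg2 had the highest M21 gene level of the family, at 175 TPM in replicate 1 and 172 in replicate 2 (173.5 ± 2.14 TPM, mean ± SD, n = 2), from 10509 and 9579 expected counts. It ranked 650 among the protein-coding genes. The gene lies at chr6:58584523-58695676 on the plus strand (mm10), and M21 annotates 13 transcripts for it, which begin at 7 places along the locus. Nearly all of its RNA was assigned to 1 of these places. The 6 transcripts that start between 58640546 and 58640582 held 95.7% ± 0.517 of the gene's TPM (SD, n = 2), with 96.1% in replicate 1 and 95.3% in replicate 2. Transcripts that start at the 5′ end of the locus had no counts in either library. The transcript that starts 12.1 kb further on, the longest of the gene at 5717 bases, held 0.451% in replicate 1 and 0.477% in replicate 2. A short annotated transcript of 348 bases that starts 11.5 kb from the first start held 2.06% and 2.52% of TPM, on 29.3 and 32.6 counts. Within the leading start, the protein-coding transcript Abcg2-202 took 81.7% of TPM in replicate 1 and 82.2% in replicate 2, and the retained-intron transcript Abcg2-203 took 11.3% and 8.81%. Reads from exons that the transcripts share were divided among them by the authors' quantification, so a share by start is an estimate and not a direct count of 5′ ends.

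**Figure D2:**
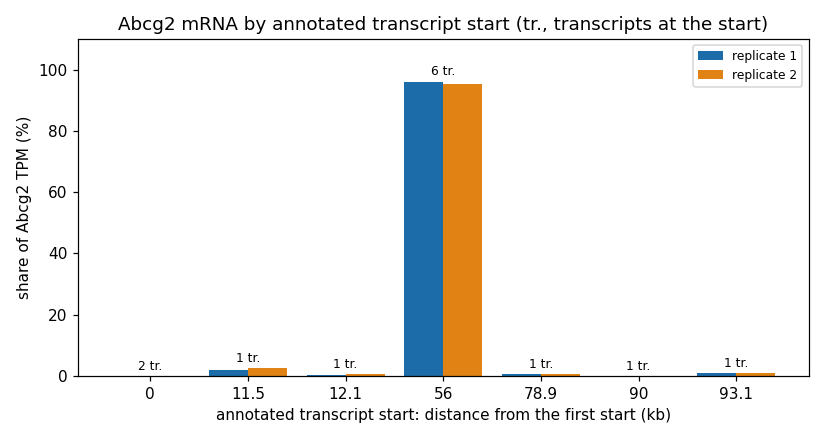
Share of Abcg2 TPM (%) by annotated transcript start, in order along the locus from the first start (distance in kb), with blue bars for replicate 1, orange bars for replicate 2 and the number of transcripts above each pair. The start 56 kb along the locus holds over 95% in both libraries (96.1% and 95.3%), and the first start holds none.

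The 3 promoters that RefSeq (GRCm38.p6) lists for Abcg2 are printed because their transcripts differ so widely in level. Each line gives the 250 bases before the start, 5′ to 3′ on the gene's strand, in the order of the starts 58584533, 58596672 and 58640546. Capitals mark CCNCNCCC, the kind of word bound by Krüppel-like factors such as the erythroid Klf1, on either strand and with overlapping matches joined.
Abcg2 (chr6:58584283-58584532, plus strand): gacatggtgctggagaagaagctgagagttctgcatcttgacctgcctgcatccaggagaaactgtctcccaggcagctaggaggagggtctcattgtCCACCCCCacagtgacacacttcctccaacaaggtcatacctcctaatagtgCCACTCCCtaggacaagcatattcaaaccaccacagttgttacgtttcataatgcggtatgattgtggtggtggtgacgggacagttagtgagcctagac
Abcg2 (chr6:58596422-58596671, plus strand): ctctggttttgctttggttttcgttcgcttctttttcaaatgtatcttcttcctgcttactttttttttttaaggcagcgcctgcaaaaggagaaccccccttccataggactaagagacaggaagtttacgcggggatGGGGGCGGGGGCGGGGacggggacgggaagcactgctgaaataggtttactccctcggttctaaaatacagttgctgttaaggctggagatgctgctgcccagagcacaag
Abcg2 (chr6:58640296-58640545, plus strand): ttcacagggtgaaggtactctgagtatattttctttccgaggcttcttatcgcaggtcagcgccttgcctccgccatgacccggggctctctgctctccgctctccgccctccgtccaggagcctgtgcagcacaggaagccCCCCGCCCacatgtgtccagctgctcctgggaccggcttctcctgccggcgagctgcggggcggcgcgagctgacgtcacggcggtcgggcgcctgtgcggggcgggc
The first window, beside a start with no counts, held 2 matches to CCNCNCCC, the second held 4 that overlap, and the third, beside the leading start, held 1, CCCCGCCC at positions -108 to -101 from the start. The first window was 51.2% G or C and the third 67.6%. None of them held a GATA word, here GATA with A or T before it and A or G after it, on either strand, which says only that these letters are not in these windows.

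The 4 mitochondrial and erythroid genes were all at 10 TPM or more in both libraries, but they covered a wide range. Abcb10, an inner-membrane transporter that is induced during red cell maturation and needed for haem synthesis, had 160.2 TPM in replicate 1 and 163.6 in replicate 2 (161.9 ± 2.37 TPM, SD, n = 2). It ranked 710 among the protein-coding genes and lies at chr8:123952459-123983122 on the minus strand. Abcb6, which has been linked to porphyrin transport, had 72.3 TPM in replicate 1 and 68.6 in replicate 2 (chr1:75171717-75180392, minus strand). Abcb8, which takes part in mitochondrial iron and potassium handling, had 28.6 and 27.2 TPM (chr5:24393663-24410054, plus strand). The order Abcb10, Abcb6 and Abcb8 was the same in both libraries, with no overlap between neighbours. The TPM of Abcb10 was 2.30 ± 0.120 times that of Abcb6 (SD, n = 2).

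The levels of Abcg2 and Abcb10 were close. Their ratio was 1.07 ± 0.0289 (SD, n = 2), and the lower Abcg2 value, 172 TPM, lay above the higher Abcb10 value, 163.6 TPM. Under M4 they overlapped, with 175.7 and 169.8 TPM for Abcg2 and 166.3 and 169.9 TPM for Abcb10. By the highest-count transcript of each gene, an alternative chosen after seeing the data, Abcg2 was lower, at 142.2 ± 1.11 TPM, against 161.9 ± 2.37 TPM for Abcb10 (SD, n = 2). In expected counts the order was also the reverse, with 22017 and 20812 for Abcb10, which has a single annotated transcript of 4306 bases, and 10509 and 9579 for Abcg2, whose main transcript has 2178 bases. The 2 units differ because TPM divides by length.

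Among the 7 canalicular genes, Abcb4 stood apart. Abcb4, the phosphatidylcholine floppase of bile, had 31.7 TPM in replicate 1 and 33.5 in replicate 2 (32.6 ± 1.26 TPM, SD, n = 2; chr5:8893717-8959231, plus strand). It made up 76.5% ± 0.0411 of the summed TPM of the list. Abcc2, the canalicular pump for bilirubin glucuronides and other conjugates, had 7.37 TPM in replicate 1 and 6.87 in replicate 2 (chr19:43782192-43840740, plus strand). Abcb11, the bile salt export pump, had 1.15 and 1.80 TPM from 112 and 130 expected counts (chr2:69238282-69342616, minus strand). These 3 were the canalicular genes at 1 TPM or more in both libraries by deposited TPM. By the deposited posterior mean TPM, Abcb1b (1.18 and 1.43) and Abcb1a (1.32 and 1.42) also passed 1 TPM in both, and by the highest-count transcript Abcb11 did not (0.66 and 0.78 TPM).

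The 4 others were under 1 TPM. Abcb1b had 0.75 TPM in replicate 1 and 0.98 in replicate 2 (chr5:8798147-8866315), and Abcb1a had 0.23 and 0.22 TPM (chr5:8660077-8748575), on 34.4 and 32.6 counts for Abcb1b and 28.5 and 31.5 for Abcb1a. Both are multidrug P-glycoproteins, similar in sequence. The authors' division of reads had a posterior SD of up to 3.63% of the count for Abcb1b and 4.14% for Abcb1a. This SD does not cover the counting error of such low counts. The sterol half-transporters Abcg5 (chr17:84658234-84683011, minus strand) and Abcg8 (chr17:84676302-84700333, plus strand) are transcribed in opposite directions. Abcg5 had 0.12 and 0.22 TPM on 7 and 10 counts, and Abcg8 had 0.12 and 0.23 TPM on 12 and 16 counts. Their exons overlap by 82 bases on opposite strands, and whether the counting used strand is not given in the sources used here.

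Set against each other, the mitochondrial and erythroid list had a median of 5.51 ± 0.05 on the log2(TPM + 1) scale, and the canalicular list 0.90 ± 0.13 (SD, n = 2). The difference of medians was 4.73 in replicate 1 and 4.48 in replicate 2, or 4.61 ± 0.18 on average. These SDs are between the 2 pools and do not cover the range of genes within a list. The canalicular median is the value of 1 gene, Abcb1b, which had 34.4 and 32.6 counts. Under M4, Abcb1b had 0.25 and 0.27 TPM, against 0.75 and 0.98 TPM under M21. In summed TPM the 4 mitochondrial and erythroid genes came to 271.2 and 270.4 TPM, and the 7 canalicular genes to 41.5 and 43.8 TPM. The ratio of these sums was smaller, 6.36-fold ± 0.262 or 2.67 ± 0.06 on the log2 scale, since Abcb4 carries most of the canalicular sum. Without Abcb4, a choice made after its values were seen, the ratio of sums was 27.0-fold ± 1.16. Neither sum includes Abcg2, which had 175 TPM in replicate 1 and 172 in replicate 2, more than the whole canalicular sum. Counted as canalicular, Abcg2 would bring the sums much closer, and that ratio was not computed. The medians and sums are of 11 genes, chosen with earlier results of these data known, in 1 tissue at 1 stage. No test across genes was made, and the difference belongs to these lists only.

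**Figure D3:**
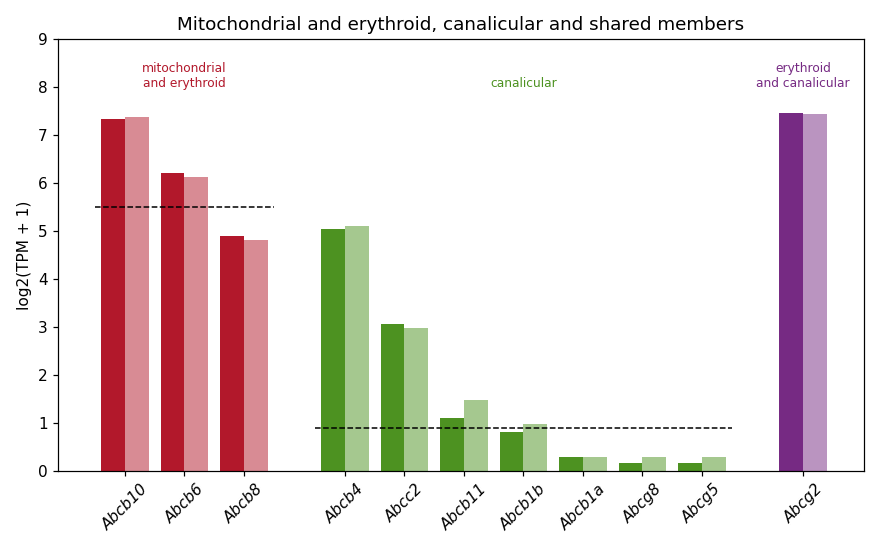
Level of each gene as log2(TPM + 1), with dark bars for replicate 1 and pale bars for replicate 2, for the mitochondrial and erythroid list (red), the canalicular list (green) and Abcg2, which belongs to both (purple); 1 gene is not shown, and dashed lines mark the medians of the whole lists, 5.51 and 0.90. Abcb4 reaches above Abcb8, so the lists overlap, while 4 canalicular genes stay at or below 1 on this scale in both libraries.

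The lists overlapped gene by gene. Abcb8 had 0.857 ± 0.0619 times the TPM of Abcb4 (SD, n = 2). The order of Abcb8 and Abcb4 depended on the annotation. Under M21, Abcb8 had 28.6 and 27.2 TPM and Abcb4 31.7 and 33.5 TPM, whereas under M4 Abcb8 had 29.4 and 27.7 TPM and Abcb4 26.0 and 27.1 TPM. Abcb10 and Abcb6 lay above every canalicular gene in both libraries and under both annotations.

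The promoters of the 2 highest mitochondrial and erythroid genes and of 2 canalicular genes, with both RefSeq starts of Abcg8, are printed to set these lists side by side. They are again the 250 bases before the RefSeq start (GRCm38.p6), 5′ to 3′ on the gene's strand. Capitals mark CCNCNCCC matches on either strand and, in the second Abcg8 window only, GATA words.
Abcb10 (chr8:123983123-123983372, minus strand): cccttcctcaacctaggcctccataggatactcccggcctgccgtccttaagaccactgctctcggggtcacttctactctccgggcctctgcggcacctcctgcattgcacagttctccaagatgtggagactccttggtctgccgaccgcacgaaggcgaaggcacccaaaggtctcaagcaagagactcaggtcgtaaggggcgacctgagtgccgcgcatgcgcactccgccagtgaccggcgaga
Abcb6 (chr1:75180393-75180642, minus strand): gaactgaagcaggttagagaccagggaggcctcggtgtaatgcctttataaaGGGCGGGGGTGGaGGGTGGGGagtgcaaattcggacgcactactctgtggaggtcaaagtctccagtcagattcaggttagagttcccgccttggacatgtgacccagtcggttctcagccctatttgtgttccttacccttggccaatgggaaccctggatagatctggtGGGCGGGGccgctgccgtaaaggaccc
Abcb4 (chr5:8893471-8893720, plus strand): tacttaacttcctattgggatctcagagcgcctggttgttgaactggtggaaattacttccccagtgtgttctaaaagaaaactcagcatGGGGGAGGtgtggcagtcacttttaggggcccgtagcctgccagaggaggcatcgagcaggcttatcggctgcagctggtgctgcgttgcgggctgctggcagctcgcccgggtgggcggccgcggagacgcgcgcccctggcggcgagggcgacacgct
Abcg8 (chr17:84676052-84676301, plus strand): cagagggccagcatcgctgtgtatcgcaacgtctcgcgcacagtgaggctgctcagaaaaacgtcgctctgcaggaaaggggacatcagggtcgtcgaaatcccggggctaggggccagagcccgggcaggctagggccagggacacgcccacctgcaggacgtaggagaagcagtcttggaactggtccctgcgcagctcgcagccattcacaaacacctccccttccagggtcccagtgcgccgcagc
Abcg8 (chr17:84682871-84683120, plus strand): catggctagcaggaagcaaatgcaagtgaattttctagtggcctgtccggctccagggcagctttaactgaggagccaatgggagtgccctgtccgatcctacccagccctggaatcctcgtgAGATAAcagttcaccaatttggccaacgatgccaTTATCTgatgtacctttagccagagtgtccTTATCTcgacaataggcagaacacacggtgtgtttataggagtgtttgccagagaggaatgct
Abcb10, the highest of these genes in TPM, held neither kind of word, Abcb6 held 4 matches to CCNCNCCC and Abcb4 held 1. Abcg8 was under 1 TPM from either start. The window before its start at 84676302, which had 0.06 TPM in replicate 1 and 0.23 in replicate 2, held neither kind of word. The window before 84683121, which had 0.07 TPM in replicate 1 and none in replicate 2, held 3 GATA words (AGATAA on either strand) at positions -127 to -122, -93 to -88 and -63 to -58. This start lies close to that of Abcg5, and the windows of the 2 genes overlap. The 2 GATA words in the Abcg5 window are the same bases as those at -93 to -88 and -63 to -58 here. Both windows are counted below. Of 45 promoters that RefSeq lists for 38 of the 50 genes, 10 (22.2%) held a GATA word, against 26.5% of all 32851 promoters of that length. CCNCNCCC was in 27 of the 45 (60%), against 45.9% of all. The words TGAGTCA, bound by NF-E2 and AP-1, and GTTAAT, the half-site of hepatic HNF1 factors, were in none of the 45, against 4.46% and 6.43% of all. A match is a match of letters only, and binding was not measured.

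The lists of partner genes differed in level as well. All 15 haem and iron-sulphur cluster genes examined were at 1 TPM or more in both libraries and 14 of them at 10 TPM or more, with a list median of 169.9 ± 4.67 TPM (SD, n = 2). Tmem14c, which is needed for porphyrin import into the mitochondrial matrix, had 768 and 784 TPM. Fech, which inserts iron into porphyrin to form haem and binds Abcb10 and mitoferrin, had 657 and 688 TPM. Alas2, the first enzyme of erythroid haem synthesis, had 651 and 679 TPM. Slc25a37 (mitoferrin), the iron importer that Abcb10 stabilises, had 311 and 317 TPM. Of 15 genes of bile formation, 5 were at 1 TPM or more and 1 at 10 TPM or more, with a list median of 0.475 ± 0.00707 TPM. Tmem30a, a widely expressed flippase subunit, had 32.6 and 35.1 TPM. Nr1h4, the bile acid receptor that activates Abcb11 in mature liver, had 1.87 and 2.37 TPM, and Myo5b, a motor that delivers transporters to the canaliculus, had 1.22 and 1.52 TPM. The organic anion importers Slco1a1 and Slco1a4 had no counts.

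The 4 translation ATPases, which lack membrane spans and act on ribosomes, were all high. Abce1, which recycles ribosomes, had 99.8 TPM in replicate 1 and 103.5 in replicate 2. Abcf2 had 80.5 and 78.4 TPM, Abcf1, which works with initiation factor eIF2, had 75.7 TPM in both libraries, and Abcf3 had 32.5 and 33.9 TPM. Together they made up 30.9% ± 0.128 of the family's TPM (SD, n = 2), close to the 28.9% ± 0.148 of the 4 mitochondrial and erythroid genes and far above the 4.54% ± 0.164 of the 7 canalicular genes. Abcg2 alone made up 18.5% ± 0.283.

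Of 7 genes of basolateral and other efflux, 6 were at 1 TPM or more in both libraries. Abcc5, an exporter of cyclic nucleotides and, in mouse and human cells, of glutamate conjugates, had 24.0 TPM in replicate 1 and 25.3 in replicate 2. Abcc1, a glutathione conjugate exporter, had 5.20 and 5.49 TPM, Abcc6, which mediates ATP release from the adult liver, had 4.14 and 4.47 TPM, and Abcc3, a basolateral exporter of bile acid conjugates, had 3.37 and 3.63 TPM. Abcc3 and Abcc6 thus stood below canalicular Abcc2 in both libraries. Abcc4 and Abcc10 lay between 2.02 and 2.86 TPM. Abcc12 had 1 count in replicate 1 and none in replicate 2.

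All 6 sterol and phospholipid transporters were at 1 TPM or more in both libraries. Abca3, known best as the surfactant lipid transporter of the lung, led with 17.7 TPM in replicate 1 and 18.9 in replicate 2. The lung marker Sftpc had no counts in either library. Abcg4, a sterol transporter known mainly from brain and blood progenitors, had 16.9 and 18.2 TPM, which overlapped the range of Abca3. Abca7 had 10.2 and 8.77 TPM. Abca1, which loads cholesterol onto apolipoprotein A-I, had 8.48 and 8.16 TPM, and its acceptor Apoa1 had 1208 and 1215 TPM. Abcg1 and Abca2 lay between 2.34 and 4.60 TPM. All 8 sterol efflux partners examined were at 10 TPM or more, among them Apoe at 1081 and 1048 TPM and Srebf2 at 81.2 and 83.1 TPM.

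The 5 peroxisomal and lysosomal members were also all at 1 TPM or more in both libraries. Abcd3, the peroxisomal importer of branched-chain fatty acids and bile acid precursors, had 24.9 TPM in replicate 1 and 23.6 in replicate 2. The lysosomal cobalamin transporter Abcd4 had 4.70 and 4.94 TPM, and the lysosomal peptide transporter Abcb9 had 4.22 and 4.66 TPM. Abcd2 was lowest, with 1.57 and 1.43 TPM. All 8 peroxisomal and cobalamin partners examined were at 10 TPM or more, led by Pex19 (47.6 and 46.0 TPM), Acaa1a (36.2 and 31.8 TPM) and Hsd17b4 (34.2 and 33.5 TPM).

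The other 16 members were low. The channel subunit Abcc9 had 2.02 TPM in replicate 1 and 2.39 in replicate 2, and Abcc8, the sulfonylurea receptor of the pancreas, had 0.28 and 0.17 TPM. Of 8 lipid transporters known from other tissues, 3 were at 1 TPM or more, Abca8b at 4.36 TPM in both libraries, Abca6 at 2.76 and 2.77 TPM and Abca4 at 1.13 and 1.03 TPM. Abca5 had 0.80 and 0.41 TPM on 111 and 89 counts. Abca8a, Abca9 and Abca13 lay between 0.01 and 0.61 TPM. Of 6 genes known from testis or little known, Abcg3 alone was at 1 TPM or more, with 1.84 and 1.90 TPM. Abca14 had 0.36 and 0.01 TPM on 4 counts and 1 count. Abca17 and Abcb5 had at most 2 counts in a library. By subfamily, the highest genes were Abca3, Abcb10, Abcc5, Abcd3, Abce1, Abcf2 and Abcg2.

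The 2 pools of embryos differed little in these genes. With expected counts scaled by the TMM method, 41 of the 50 genes had a mean count of at least 10. None of the 41 passed a 2-fold ratio with an exact 95% binomial interval that excluded the scaled split, against 2.39% of all 17369 genes compared. The median size of the log2 ratio was 0.07, against 0.10 for all genes, and the log2 ratio of replicate 1 over replicate 2 was 0.02 for Abcg2, -0.03 for Abcb10 and -0.06 for Abcb4. The interval excluded a ratio of 1 for 8 of the 41 members, a count for which no share over all genes was computed. Among these 8, the log2 ratios were small for Abcb10, Abce1 and Abcb6. They were larger for Abcc10 (-0.29), Abca2 (-0.23) and Abcc3 (-0.22). Ratios ran between -0.51 for Abcg8 and 0.46 for Abcc8, both on few counts. Abca7, another of the 8 whose interval excluded a ratio of 1, had 0.21 with an interval of 0.12 to 0.30. It had 2185 counts in replicate 1 and 1744 in replicate 2. These ratios compare 2 libraries, and the intervals cover counting error only.

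**Figure D4:**
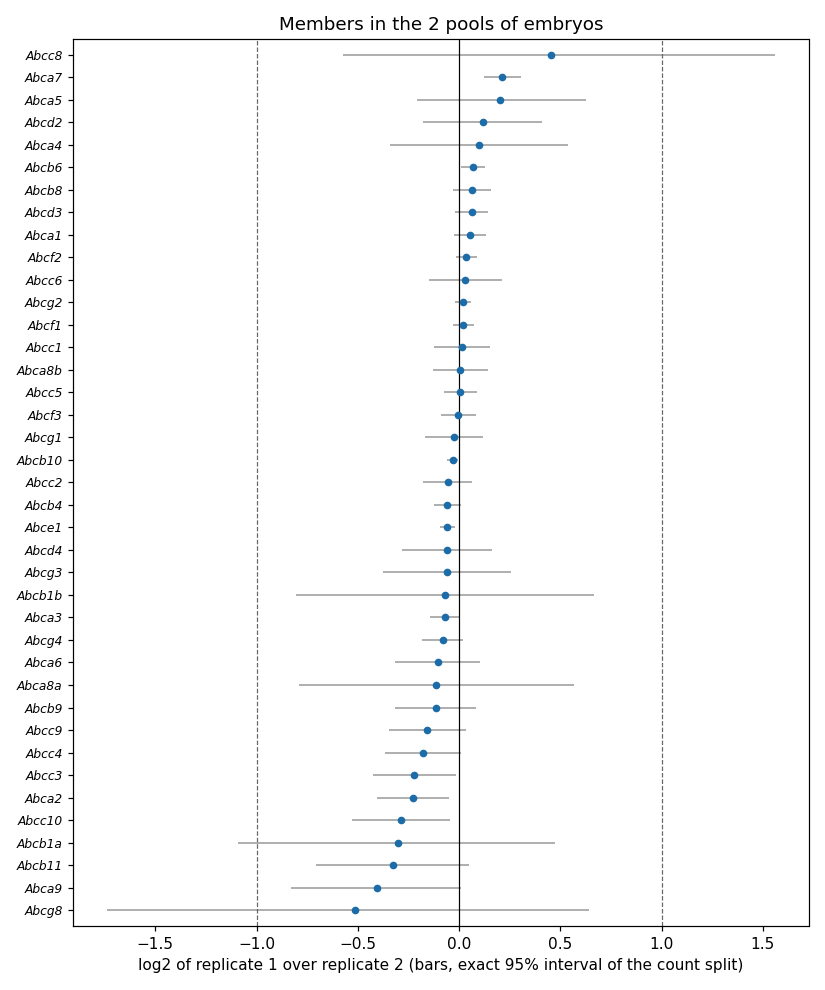
Log2 ratio of replicate 1 over replicate 2 in TMM-scaled counts for 39 of the 41 ABC genes with a mean count of at least 10, with exact 95% intervals of the split of counts; dashed lines mark 2-fold. All 39 points lie within 2-fold, between -0.51 and 0.46, and the wide intervals belong to genes with few counts.

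Each library was quantified under both M21 and M4, from the same reads. Of 34 members with a mean of 1 TPM or more under either annotation, none differed by 1.5-fold in both libraries on the log2(TPM + 1) scale, against 5.52% of 13235 genes. The median log2 ratio of M21 over M4 was -0.038 for the members and -0.042 for all genes, so the members moved about as genes in general. Of the 34 members, 25 were lower under M21, and the share of all genes that were lower was not computed. Abcg1 had the lowest ratio, with 4.49 and 4.60 TPM under M21 and 7.07 and 7.21 TPM under M4 (log2 ratio -0.55). With a pseudocount of 0.1 TPM in place of 1 it was past 1.5-fold. Abcb4 had the highest ratio, 0.28, with 31.7 and 33.5 TPM under M21 and 26.0 and 27.1 TPM under M4. Abcb1b was under the filter, with 0.75 and 0.98 TPM under M21 and 0.25 and 0.27 TPM under M4, and this gene sets the canalicular median.

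The TPM of several members was divided among transcripts, some of them short or intron-retaining. Such division among transcripts was also common in other genes. Of 14 members at a mean of 10 TPM or more, 7 had 2 or more transcripts at 10% or more of the gene's TPM in both libraries, and 56.2% of protein-coding genes at that level did. They were Abcb4, Abcb6, Abcb8, Abcc5, Abcd3, Abcf3 and Abcg4. In Abcb6 the full-length transcript Abcb6-201 held 64.1% of TPM in replicate 1 and 63.7% in replicate 2, and Abcb6-206, of 416 bases, held 30.7% and 30.4%. In expected counts these transcripts held 88.3% and 4.67% on average. A further 2932 of the 5315 exonic bases of Abcb6 overlap Gm29253 on the same strand, an annotated transcript with 0.80 and 0.82 TPM. In Abcb4, Abcb4-201 held 76.6% and 75.3% of TPM and the retained-intron transcript Abcb4-204 held 15.7% and 14.3%. In Abcb8 the leading pair was Abcb8-201 (63.0% and 53.4%) and Abcb8-208 (18.1% and 20.0%), and in Abcd3 it was Abcd3-201 (70.6% and 66.7%) and Abcd3-204 (20.8% and 26.5%).

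In Abcc5, retained-intron transcripts made up 44.5% ± 1.05 of TPM but 28.7% ± 0.102 of counts (SD, n = 2). Abcf3 had retained introns at 19.0% ± 0.376 of TPM. Abcg4 used both of its main starts about equally, with 33.8% of TPM in replicate 1 and 31.8% in replicate 2 for Abcg4-201 and 33.6% and 30.4% for Abcg4-208. Among the canalicular genes, Abcb11-203, of 648 bases and annotated as a processed transcript, held 42.6% and 56.7% of Abcb11 TPM on 8.76 and 17.0 counts. The coding transcript Abcb11-202 had 0.66 and 0.78 TPM. In Abcb1b, the transcript Abcb1b-203, of 690 bases and annotated for nonsense-mediated decay, held 59.5% and 57.6% of TPM on 8.52 and 10.2 counts. The coding transcript Abcb1b-201 had 0.16 and 0.14 TPM. In Abcc2, retained introns held 30.7% ± 0.0342 of TPM and 3.07% ± 0.280 of counts. Abcb10 and Abcf2 have 1 annotated transcript each, so their TPM is not divided. Each gene was also reduced to its highest-count transcript, an alternative chosen after seeing the data. The difference of medians between the mitochondrial and erythroid list and the canalicular list was then 4.56, against 4.61 for whole genes. Both medians were lower by this measure, so the similar difference does not mean that the levels were unchanged. Abcb6 and Abcb8, which set the mitochondrial and erythroid median, had 46.33 and 43.66 TPM and 18 and 14.55 TPM in replicates 1 and 2. The canalicular median was 0.16 TPM in replicate 1 (Abcb1b) and 0.23 TPM in replicate 2 (Abcg8), against 0.75 and 0.98 TPM for whole genes.

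**Figure D5:**
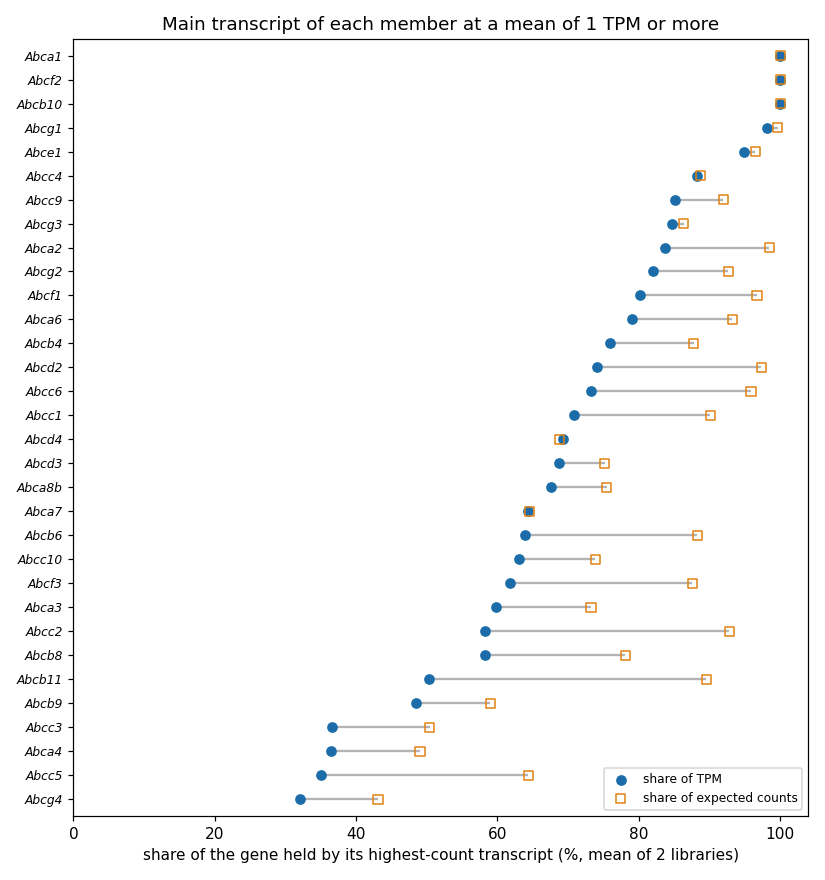
Share of each gene held by its highest-count transcript (%, mean of both libraries), in TPM (filled circles) and in expected counts (open squares), for 32 of the 34 ABC genes at a mean of 1 TPM or more. The median share over all 34 is 72.0% in TPM and 89.0% in counts, and the widest gaps include Abcb11, Abcc2 and Abcc5, whose short transcripts take more of the TPM than of the counts.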

How the data were processed

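Gene and transcript tables of 2 libraries of polyadenylated mouse liver RNA were used, prepared per the labels with the mirVana, SMARTer Ultra Low and Nextera kits. The expected counts were deposited by the authors, who divided reads among genes and transcripts, and need not be whole. The TPM and FPKM values are as deposited by the authors, which scale the counts by effective length and depth, per the file headers, as are the other values used here, the posterior mean TPM and the posterior SD of the counts. The deposited notes name mm10 and the annotations GENCODE M4 and M21. Aligner, quantifier and use of strand were not given in the sources used here.

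TPM were averaged over both libraries, with pandas 2.3.3 and numpy 2.4.6. M21 was used except where M4 is named. The gene table held 81881 entries, among them 96 spike-ins, 1 other entry and 26248 with bare numbers, which were left out. Spike-ins took 4.99% and 5.40% of all TPM, which lowers gene TPM in proportion. Expected counts were rounded for the interval of the split between pools (scipy 1.17.1) and scaled with TMM (edgeR 4.0.16), a prior count of 0.5 and a mean count of at least 10; the script was tested on simulated data. The edgeR coefficient of biological variation of the whole libraries was 4.51%. DESeq2 1.42.0 size factors were an alternative. With 1 group of 2 libraries no p-value was computed. Starts within 50 bases of each other were grouped. Promoters came from RefSeq, whose first 50 transcript bases equalled the M21 transcript in 42 of 42 compared. Only M21 transcripts with the same start position were compared, so this equality could hardly fail. Some RefSeq starts had no such transcript, and that of Abcb1a lay 92986 bases from the nearest M21 start. Figures were drawn with matplotlib 3.10.9.

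The genes and lists were chosen with earlier results of these data known. Every gene of the mitochondrial and erythroid, shared and canalicular lists is given by value, except as below, and of each other member list the 4 highest in mean TPM, of partner lists the 3 highest and up to 2 under 1 TPM, and transcripts of genes at 10 TPM or more with 2 at a share of 10%, with Abcg2 and Abcb10. Slc25a37, Flvcr1, Abca5, Abca14, Abcc12 and the transcripts of Abcb1b, Abcb11 and Abcc2 were named after their values were seen. So were the pool ratios of Abcc10, Abca2 and Abcc3. Single values of 2 of the 50 genes are not reported here; counts, medians and sums include them.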

Additional observations from a re-analysis of the deposited data

How the results depend on the processing

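As a median, mean or sum, the mitochondrial and erythroid list stood above the canalicular list under each of the 13 alternatives tried. Single genes of the lists overlapped, as given above. The difference of medians, 4.61 on the log2(TPM + 1) scale, was 3.90 as a mean of log2 values, 2.67 as a ratio of summed TPM, 5.26 with Abcg2 in the mitochondrial and erythroid list, 4.41 with Abcg2 in the canalicular list, 5.54 with a pseudocount of 0.1 TPM, 5.22 under M4, 4.29 with posterior mean TPM and 4.91 without Abcb4 (chosen after seeing the data). Both placings of Abcg2 were tried with medians only, not with summed TPM. Leaving out each replicate in turn gave 4.48 and 4.73 for the difference of medians. The median level of the 50 genes, 3.155 TPM, was 3.47 with posterior mean TPM and 2.15 with the highest-count transcript of each gene, also chosen after seeing the data, and 3.065 and 3.245 TPM with 1 replicate left out. Members at 1 TPM or more numbered 34 without either replicate, and between 30 and 36 under every other setting. No member differed between the pools under any of the 6 alternatives. Between annotations, 1 member differed with a pseudocount of 0.1 TPM (Abcg1) and 1 with posterior mean TPM (Abcb1b). Members with 2 or more main transcripts numbered 3 at a share of 20%, and 9 with either replicate left out. The causes of these moves were not tested. No paired analysis was possible because the study has 1 group. Genes under 1 TPM rest on few counts, and deposited TPM carry 2 decimals, so their ratios are coarse.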

Other observations

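Several ABC genes lie next to each other, and in some of these groups the neighbours differed widely in level. Abcb1a, Abcb1b and Abcb4 lie within 299 kb of chromosome 5 with no other protein-coding gene between them, and their mean levels ran between 0.225 and 32.6 TPM, with Abcb4 the highest. Abca3 and Abca17 lie within 146 kb of chromosome 17, with means of 18.3 TPM for Abca3 and 0.025 TPM for Abca17. The 5 genes Abca5, Abca6, Abca8a, Abca8b and Abca9 share 406 kb of chromosome 11 and ran between 0.52 and 4.36 TPM. Abca14, Abca15 and Abca16 share 341 kb of chromosome 7, and their summed level was 0.36 TPM in replicate 1 and 0.01 TPM in replicate 2. Abcg5 and Abcg8 lie within 42.1 kb of chromosome 17 and had like means of 0.17 and 0.175 TPM.

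Of the ABC genes that carry other symbols, the peptide transporter subunits Tap2 and Tap1 had 5.75 and 4.71 TPM and 1.97 and 2.20 TPM, and the chloride channel Cftr had 0.12 and 0.04 TPM on 6 and 5 counts. Flvcr1, a haem exporter, was the lowest of the 15 haem and cluster genes, with 6.26 TPM in replicate 1 and 6.35 TPM in replicate 2.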
